A study of Mus musculus with 6 samples.

Results

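The genes described here are the Adamts and Mmp proteases and the Timp inhibitors of the mouse, taken as every gene whose symbol is Adamts, Mmp or Timp followed by a number and an optional final letter a or b. The name alone chose them, with no measured value, and it gave 46 of the 56980 genes counted: 19 Adamts, 23 Mmp and 4 Timp genes. They were followed through single-nucleus RNA sequencing of white fat from female C57BL/6J mice that carried no engineered allele and had no treatment named in the labels. Subcutaneous (inguinal) adipose tissue, SAT, was sampled at 2 months (n = 2 libraries) and at 24 months (n = 2), and visceral (gonadal) adipose tissue, VAT, at 24 months (n = 2). The labels give the old age as 24 months and the design text as 26. VAT of 2 months was not analysed here. By the study's methods both depots came from the same 2 mice of an age, so the SAT and VAT libraries of 24 months share animals. The labels do not tell which numbers match, and the depots were compared as independent libraries. The p-values below measure the spread between these libraries. The labels name the cell type as adipocytes, but the nuclei came from whole tissue and adipocytes made up 3.14% to 64.1% of the nuclei of a library.

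Matrix metalloproteinases (Mmp genes) are zinc proteases that cut collagens, gelatin and many other matrix proteins, most of them after secretion and a few from the cell surface. ADAMTS proteases carry thrombospondin repeats that hold them in the matrix, where different members cut proteoglycans, trim procollagens or act on microfibrils. The 4 tissue inhibitors of metalloproteinases (Timp genes) bind the active site of these enzymes; Timp3 is held in the matrix and is the one best known for blocking ADAMTS proteases. In fat, these enzymes and inhibitors take part in the remodelling of the matrix around adipocytes as the tissue grows.

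Sequences are shown for 2 members that rose with age in adipocytes, and for 3 genes of the Mmp cluster on chromosome 9 whose windows hold both an AP-1 motif and a TATA box. Each is the 250 bases before the start of the gene's canonical transcript, or the last 100 of them, in GRCm39 with GENCODE M39, written 5′ to 3′ on the gene's strand. Capitals mark the motifs searched: AP-1 (TGACTCA or TGAGTCA), the TATA box (TATAAA), the CCAAT box (CCAAT) and the GC box (GGGCGG), each on both strands. The first is a proteoglycan-cleaving protease that rose with age in adipocytes, and the second is the matrix-held inhibitor that rose with it. The window of Timp4, the member with the largest rise in adipocytes, lies partly inside its own gene model and is not shown.
Adamts1, chr16:85600010-85600259, minus strand: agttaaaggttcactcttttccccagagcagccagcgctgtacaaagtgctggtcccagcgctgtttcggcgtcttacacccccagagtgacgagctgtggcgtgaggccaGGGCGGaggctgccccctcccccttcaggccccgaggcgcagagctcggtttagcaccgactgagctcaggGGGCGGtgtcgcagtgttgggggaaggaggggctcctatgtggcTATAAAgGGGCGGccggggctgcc
Timp3, chr10:86135986-86136235, plus strand: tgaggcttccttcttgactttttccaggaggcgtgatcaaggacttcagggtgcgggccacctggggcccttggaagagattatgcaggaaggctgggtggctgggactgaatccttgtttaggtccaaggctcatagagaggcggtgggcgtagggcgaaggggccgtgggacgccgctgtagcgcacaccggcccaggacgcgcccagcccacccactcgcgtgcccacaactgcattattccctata
Mmp3, last 100 bases, chr9:7445722-7445821, plus strand: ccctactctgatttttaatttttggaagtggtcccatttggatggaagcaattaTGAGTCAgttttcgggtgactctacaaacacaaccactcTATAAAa
Mmp10, last 100 bases, chr9:7502253-7502352, plus strand: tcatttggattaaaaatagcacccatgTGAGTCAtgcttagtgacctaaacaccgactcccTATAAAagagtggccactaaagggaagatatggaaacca
Mmp13, last 100 bases, chr9:7272414-7272513, plus strand: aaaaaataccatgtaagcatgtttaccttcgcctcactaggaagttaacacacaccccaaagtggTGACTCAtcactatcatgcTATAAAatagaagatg

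The AP-1 motif lay in 4.0% of the 21770 protein-coding promoters of this length, in 11 of 45 member promoters searched (24.4%) and in 7 of the 10 Mmp promoters on chromosome 9 (70.0%). These 10 genes, Mmp3, Mmp10 and Mmp13 among them, lie side by side at chr9:7272514-7699587. TATAAA lay in 11.9% of all promoters, in 26.7% of member promoters and in 8 of the 10 on chromosome 9. The CCAAT box and the GC box were in 24.4% and 33.3% of member promoters and in 36.5% and 36.3% of all. Neither of the members with the whole window shown held AP-1, and Timp3 held none of the motifs. A match describes the letters of the window only.

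All 46 members were matched by identifier, and 12 of them overlap another protein-coding gene. Among these are all 4 Timp genes: Timp1, Timp3 and Timp4 each overlap a synapsin gene (Syn1, Syn3 and Syn2) on the other strand, and Timp2 overlaps Cep295nl on its own strand. Whether the counting used the strand is not given in the sources used here, so reads of such pairs could be shared. Of the 46, 39 had at least 100 UMIs (unique molecular identifiers, each standing for 1 captured RNA molecule) over all nuclei, 4 had 10 to 99 (Mmp8, Mmp10, Mmp13 and Adamts8) and 3 had 1 to 9 (Mmp1a, Mmp1b and Mmp21). No member was at 0.

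Each library held 8061862 to 16226690 UMIs, and 2490 to 5776 nuclei per library passed the filters, 27074 in all, with median UMIs per nucleus of 1380 to 1878. The median mitochondrial share of UMIs in these nuclei was 1.717% and 0.918% in young SAT and 3.488% and 2.909% in old SAT. In VAT it was 0.776% and 5.069%. The part of this in the age differences was not tested. Levels are given as CPM, counts per mega-count: a gene's UMIs scaled to the total UMIs of a class of nuclei in a library, and are not corrected for gene length, so they compare samples and classes of nuclei for 1 gene and not one gene with another. Classes were named from marker lists that hold no member. The adipocyte markers summed to 12055 to 13978 CPM in the class called adipocytes. The second VAT library stands apart: its summed ovary and oviduct markers were at 2488 CPM over all nuclei against 18.6 to 40.2 CPM elsewhere, it gave 159 adipocyte nuclei, and its nuclei called FAPs (fibro-adipogenic progenitors, the stromal fibroblast-like cells of fat) held 4514 CPM of FAP markers against 22601 to 39865 CPM elsewhere and 2464 CPM of mesothelial markers against 2.91 to 232 CPM. The clusters named mesothelial held 4232 and 5316 CPM of mesothelial markers in VAT and only 0 to 26.0 CPM in SAT, where 6 to 8 of the 8 markers had no UMI in a library, so their 54 to 89 nuclei per SAT library are not called mesothelial here. The second SAT library of 24 months held 7402 CPM of adipocyte markers in its endothelial nuclei against 2226 to 2359 CPM in the other SAT libraries.

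FAPs were the class that most often held the highest level. By the mean over libraries, 19 of the 39 members with at least 100 UMIs were highest in FAPs among the 6 classes compared (adipocytes, FAPs, endothelial, immune and epithelial nuclei and the clusters named mesothelial), 5 in endothelial nuclei, 5 in immune nuclei, 5 in the clusters named mesothelial, 3 in epithelial nuclei and 2 in adipocytes. The choice of the highest class was firm for few of them: in every library compared, the same class was the highest for 6 of the 19 FAP members (Adamts2, Adamts14, Mmp2, Mmp14, Mmp23 and Timp2), for Adamts9 in endothelial nuclei, for Mmp25 in immune nuclei and for Mmp28 in adipocytes. These class levels are a description with no test. The smooth muscle or pericyte-like nuclei, 30 to 193 in a library, were not among the 6 classes, and their larger cluster had higher means than any of the 6 for Adamts1 (204 ± 221 CPM, n = 6), Adamts18 (270 ± 227 CPM, n = 6), Adamts17, Adamts20 and Mmp17. Unnamed clusters were also outside the 6 classes. The one led by Pcdh15 held Mmp23 at a mean of 282 CPM (n = 6) against 179 CPM in FAPs.

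The other 13 members with their highest mean in FAPs were Adamts6, Adamts10, Adamts12, Adamts15, Adamts16, Adamts18, Mmp3, Mmp11, Mmp16, Mmp17, Mmp19, Mmp27 and Timp1. They ranged from Mmp17, a membrane-type MMP at 7.60 ± 3.95 CPM (SD, n = 6 libraries) that was highest there in 1 of 6 libraries, to Adamts12, which was highest there in 5 of 6. Beside Adamts9, the endothelial members were Adamts1, Adamts4, Timp3 and Timp4. Beside Mmp25, the immune members were Adamts20, Mmp9, Mmp12 and Mmp20, and the epithelial ones were Mmp15 (239 ± 131 CPM, n = 5), the small secreted Mmp7 (matrilysin) and Adamts13, the protease of von Willebrand factor. Mmp7 and Adamts13 were each highest there in only 1 of 5 libraries. Epithelial nuclei held 3, 0, 0 and 0 Mmp7 UMIs in the SAT libraries and 13 in the second VAT library. Adamts3, Adamts7, Adamts17, Adamts19 and Mmp24 had their highest mean in the clusters named mesothelial, which in SAT lack mesothelial markers, and none of the 5 was highest there in every library. The 7 members under 100 UMIs had 87 (Adamts8), 95 (Mmp10), 50 (Mmp13), 48 (Mmp8), 6 (Mmp1a), 9 (Mmp1b) and 7 (Mmp21) in all, too few to place.

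**Figure D1:**
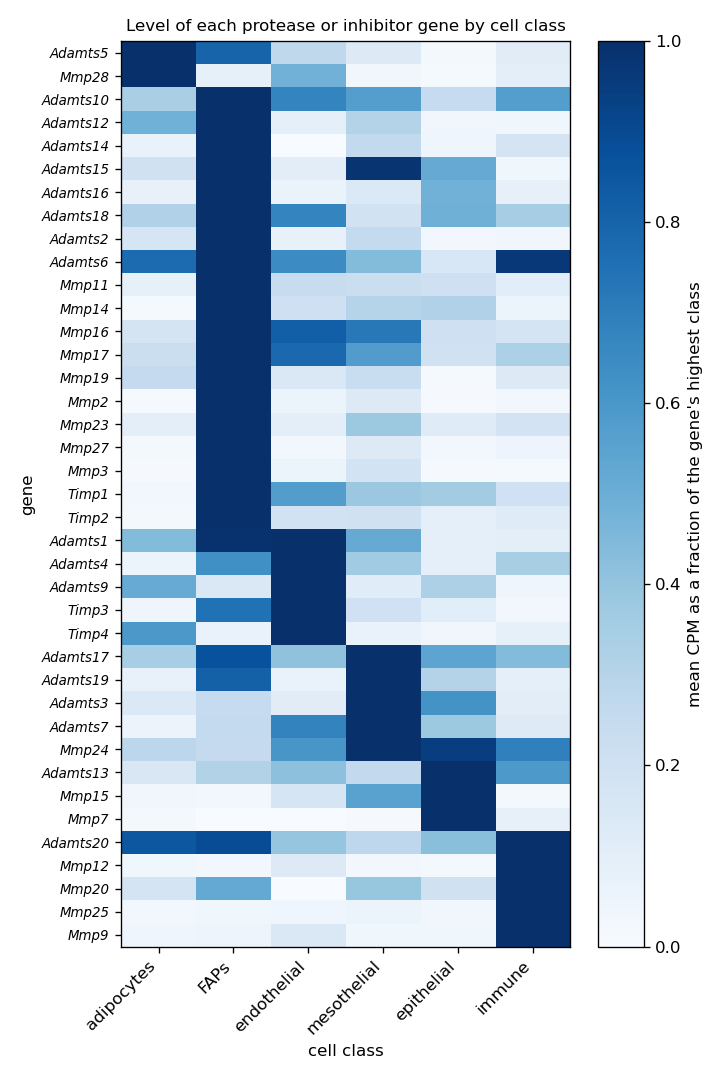
Heat map of the mean level of the 39 members with at least 100 UMIs (rows) in the 6 classes of nuclei compared (columns; smooth muscle or pericyte-like nuclei are not among them), each row scaled to its highest class, with colour from 0 to 1. FAPs have the highest mean for 19 of the 39 members, more than any other class.

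Among the inhibitors, Timp2 was the most clearly stromal, Timp3 and Timp4 had their highest means in endothelial nuclei, and Timp1 was rare everywhere. Timp2, which also helps membrane-type MMPs to activate Mmp2, was at 954 ± 542 CPM in FAPs (SD, n = 6 libraries) and was highest there in 6 of 6 libraries. Timp3 was at 1160 ± 539 CPM in endothelial nuclei and 869 ± 633 CPM in FAPs, ranges that overlapped. Timp4 was at 263 ± 310 CPM in endothelial nuclei and 157 ± 139 CPM in adipocytes, and the spread in both was as wide as the mean. Timp1 had 192 UMIs in all and reached 14.4 ± 10.3 CPM in FAPs.

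In adipocytes the members with the highest mean of the classes were Mmp28 and Adamts5. Mmp28 (epilysin, a secreted MMP) was at 88.2 ± 46.3 CPM in adipocytes and 42.5 ± 26.5 CPM in endothelial nuclei, the next class. Adamts5, an aggrecan- and versican-cleaving protease, was at 730 ± 552 CPM in adipocytes and 584 ± 382 CPM in FAPs, but in young SAT it was at 72.1 and 18.1 CPM in adipocytes and 530 and 516 CPM in FAPs. Adamts12, a protease of cartilage oligomeric matrix protein, was at 1231 ± 670 CPM in FAPs and 601 ± 153 CPM in adipocytes. The gelatinase Mmp2 and the membrane-type Mmp14, which activates it, were low in adipocytes, at 0 to 6.77 CPM and 2.07 to 6.94 CPM, with Mmp2 between 46.9 and 573 CPM and Mmp14 between 122 and 580 CPM in FAPs.

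The comparison of SAT at 24 and 2 months asks which members differ with age in each class. Adipocytes gave the answer with the most calls: 8 members were called higher and 2 lower, 1 of these (Mmp16) from a young level that is read as near the background. The inhibitors Timp4 and Timp3 rose, Timp4 by 65.0-fold and Timp3 by 8.88-fold, and 3 proteoglycan-cleaving ADAMTS rose with them, Adamts5 by 27.6-fold (log2 4.79, and 6.23 without the first young library), Adamts1 by 7.01-fold and Adamts9 by 3.09-fold. The folds of Timp3 and Adamts1 start from young levels at about the background, given below as shares of nuclei beside those of B cells, so they are ratios to about the background. The fold of Timp4 starts from 11 and 3 UMIs, or 5.92 and 3.39 CPM, beside 2.75 and 3.34 CPM in all other nuclei of young SAT. It is a ratio to a level near the floor. Of the 46 members, 21 passed the filter on low counts in adipocytes and 10 of these were called (47.6% of those tested) at an adjusted p under 0.05 (edgeR quasi-likelihood test, Benjamini-Hochberg over all genes of the class). Over all 12933 genes tested, 14.0% were called, 6.60% higher and 7.36% lower. The median log2 fold change of the 21 members was 0.81, beside a median of 0.00 over all genes. At an unadjusted p under 0.05 there were 13 members, against 30.1% of all genes. DESeq2 called 8, all of them higher. Adipocyte nuclei numbered 895, 508, 678, 2112, 2840 and 159 in the 6 libraries, in the order SAT 2 months, SAT 24 months and VAT 24 months with replicate 1 before replicate 2, an order kept for all values below.

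Timp4 (ENSMUSG00000030317, chromosome 6, 115187773 to 115229336, minus strand) was at 5.92 and 3.39 CPM in SAT of 2 months, 221 and 369 CPM in SAT of 24 months and 164 and 178 CPM in VAT of 24 months. Every library of 24 months lay above both young ones. The log2 fold change in SAT was 6.02 ± 0.40 (SE, n = 2 against 2; adjusted p = 1.83e-05), the largest of the 21 members tested in adipocytes, and 6.63 without the first young library. Timp3 (ENSMUSG00000020044, chromosome 10, 86136236 to 86185371, plus strand) was at 9.15 and 18.1 CPM, then 95.8 and 105 CPM, and 67.8 and 27.8 CPM in VAT. The old SAT libraries lay close together and well above the young, with VAT between. Its log2 fold change was 3.15 ± 0.43 (adjusted p = 0.000811). Timp2 showed no such difference, at 18.8, 14.7, 4.82, 17.5, 34.7 and 16.2 CPM (log2 fold change -0.32 ± 0.54, adjusted p = 0.742), and Timp1, with 0, 0, 2, 4, 2 and 0 UMIs in adipocytes, was too rare to test.

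Adamts5 (ENSMUSG00000022894, chromosome 16, 85653061 to 85698716, minus strand) went from 72.1 and 18.1 CPM in young SAT to 1009 and 1359 CPM in old SAT and was at 1008 and 916 CPM in VAT. The 4 libraries of 24 months were alike and the 2 young ones far below them. The log2 fold change was 4.79 ± 0.51 (adjusted p = 0.000217), with 6.23 without the first young library and 4.19 without the second. Adamts1 (ENSMUSG00000022893, chromosome 16, 85590579 to 85600009, minus strand), its neighbour, was at 8.61 and 9.03 CPM, then 42.0 and 67.2 CPM, and 48.6 and 69.4 CPM in VAT, with all old libraries above the young (log2 fold change 2.81 ± 0.37, adjusted p = 0.000749). Adamts9 (ENSMUSG00000030022, chromosome 6, 92749680 to 92920520, minus strand), which also cuts versican, was at 65.6 and 55.3 CPM, then 154 and 184 CPM, and 130 and 183 CPM in VAT. The groups of SAT did not overlap, and the log2 fold change was 1.63 ± 0.26 (adjusted p = 0.00231). The other 2 proteoglycan-cleaving members tested were not called: Adamts15 was at 34.4, 35.0, 17.9, 18.8, 8.21 and 39.3 CPM (adjusted p = 0.365) and Adamts20 at 11.3, 7.90, 0, 2.01, 1.52 and 6.94 CPM (adjusted p = 0.0759). Adamts4 and Adamts8 were too rare to test.

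The 2 procollagen N-propeptidases tested, which trim the amino end of fibrillar procollagens, went opposite ways. Adamts2 (ENSMUSG00000036545, chromosome 11, 50492787 to 50698400, plus strand) rose from 60.3 and 65.5 CPM to 103 and 139 CPM, with VAT at 50.5 and 62.5 CPM, near the young SAT level (log2 fold change with age 1.11 ± 0.25, adjusted p = 0.0141). Adamts3 (ENSMUSG00000043635, chromosome 5, 89822720 to 90031649, minus strand) fell from 23.1 and 48.5 CPM to 10.3 and 9.68 CPM, with VAT at 9.60 and 6.94 CPM. Both young libraries lay above all 4 old ones, and the young pair lay far apart. The log2 fold change was -1.65 ± 0.45 (adjusted p = 0.0321), or 3.13-fold lower, and -1.06 without the second young library (adjusted p = 0.369). Adamts12 (ENSMUSG00000047497, chromosome 15, 11064876 to 11349318, plus strand) was at 451 and 367 CPM, 667 and 679 CPM, and 708 and 733 CPM in VAT; it rose 1.84-fold (log2 0.88 ± 0.26, adjusted p = 0.0435), close to the threshold. None of the 4 microfibril-associated members tested was called: Adamts6, Adamts10, Adamts17 and Adamts19 had log2 fold changes of -0.85, 0.26, -0.95 and -1.42 (smallest adjusted p = 0.139).

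Of the 6 Mmp genes tested in adipocytes, 1 was called higher and 1 lower. Mmp28 (ENSMUSG00000020682, chromosome 11, 83330646 to 83353986, minus strand) was at 31.2 and 55.3 CPM, then 125 and 97.9 CPM, and 154 and 64.8 CPM in VAT (log2 fold change 1.57 ± 0.40, adjusted p = 0.0241). Mmp16 (ENSMUSG00000028226, chromosome 4, 17852844 to 18125390, plus strand), a membrane-type MMP, was at 12.9 and 12.4 CPM, then 1.38 and 1.83 CPM, and 2.27 and 9.26 CPM in VAT. It was lower in both old SAT libraries, on 24 and 11 UMIs against 2 and 10 (log2 fold change -2.74 ± 0.75, adjusted p = 0.0325), and its share of young adipocytes was at the level of T cells, as given below. Mmp11, Mmp15, Mmp19 and Mmp23 were not called (log2 fold changes of -0.80, 0.85, 0.81 and 1.19, smallest adjusted p = 0.166). Summed over each family, Timp genes were at 33.9 and 36.1 CPM in young and 323 and 493 CPM in old SAT adipocytes, Adamts genes at 960 and 829 against 2184 and 2583 CPM (of which Adamts5 made up 72.1 and 18.1 against 1009 and 1359 CPM), and Mmp genes at 105 and 146 against 197 and 183 CPM.

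**Figure D2:**
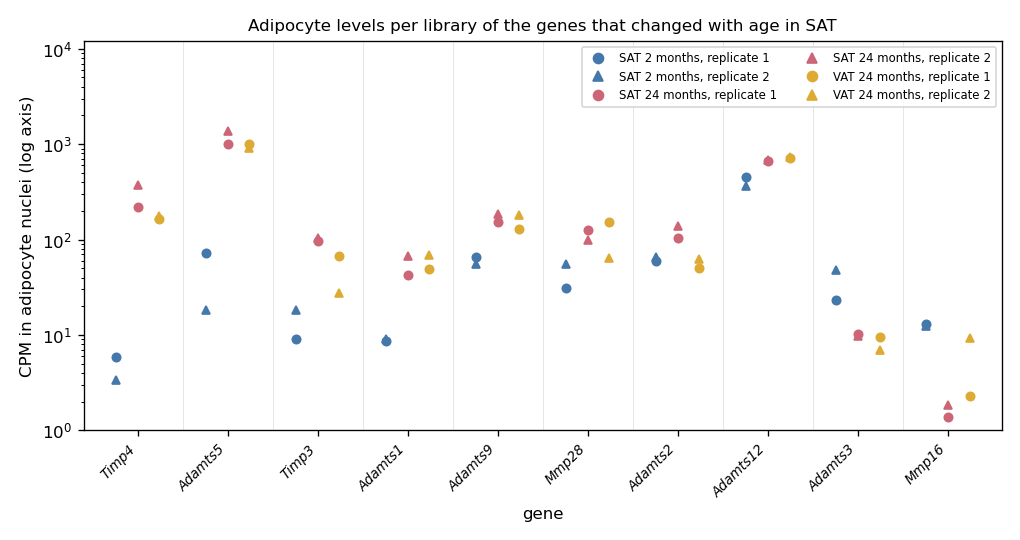
Levels of the 10 members called with age in SAT adipocytes (CPM, log axis), 1 point per library, coloured by group (SAT of 2 months, SAT of 24 months and VAT of 24 months), with circles for replicate 1 and triangles for replicate 2. The old SAT points lie above the young for 8 members, from 5.92 and 3.39 to 221 and 369 CPM for Timp4, and below them for Adamts3 and Mmp16.

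Of the 10 calls, 5 held under every one of the 15 other settings tried (Timp4, Timp3, Adamts5, Adamts1 and Adamts9), while Mmp28 was called in 13, Adamts2 in 12, Adamts3 in 10 and Adamts12 and Mmp16 in 9. Without the first young library 6 members were called, without the second 5, and without the second old SAT library 6. Mmp28 lost its call without the first young library (adjusted p = 0.207) or the second (0.0521). Adamts2 lost it without either young library (0.124 and 0.113) or the second old one (0.0784), and Adamts3 without the second young (0.369) or the second old one (0.125). Adamts12 and Mmp16 were not called without any 1 of the 4 (adjusted p from 0.0892 to 0.371 and from 0.0753 to 0.223). In the same nuclei the summed immune markers were at 645 and 1097 CPM in young and 225 and 181 CPM in old SAT (8 of 9 markers lower, none of the 9 at 0), and the summed FAP markers at 2177 and 1595 CPM against 2083 and 4774 CPM (1 of 9 higher); their part in the result was not tested.

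Levels of the members called were also compared within kinds of adipocyte. The clusters are parts of the same nuclei that gave the calls, so they add no separate support. The share of all genes without overlap is not given. Among the 4 adipocyte clusters with at least 20 nuclei in every SAT library, led by Fam13a and Slc1a3, by Gm31517, by Acacb, and by Cfd and Adipoq, Timp4, Timp3, Adamts5, Adamts9 and Adamts12 were higher in old than in young SAT without overlap in all 4, as a description with no test. Adamts1 and Mmp28 were so in 3, Adamts2 in 2, and Adamts3 and Mmp16 were lower without overlap in 3. For Timp4 the cluster led by Fam13a went from 3.72 to 6.83 CPM in young to 203 to 316 CPM in old SAT, and the cluster led by Cfd from 0 to 3.48 CPM to 314 to 693 CPM. Adamts5 was highest in the cluster led by Gm31517, at 34.3 to 168 CPM in young and 1466 to 1765 CPM in old SAT, and it is one of the genes that lead that cluster. That cluster made up 17.8% and 20.3% of young and 32.0% and 31.6% of old SAT adipocytes. In the cluster led by Fam13a, Adamts5 went from 15.9 to 53.3 CPM to 710 to 967 CPM.

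In single nuclei thinned to 1000 UMIs each, 1.38% and 5.03% of young and 45.4% to 54.3% of old SAT adipocytes held an Adamts5 UMI (2.76% to 10.2% and 60% to 69.3% unthinned). B cells, which should lack the gene, held one in 0.393% to 0.394% of nuclei at 2 months and in 3.20% to 4.41% at 24 months. The same shares were 0.197% to 0.559% and 18% to 27.4% for Timp4 in adipocytes, with B cells at 0% and at 0% to 2.94%, and unthinned 0.197% to 0.894% and 29.5% to 44.0%. For Timp3 the adipocyte share went from 1.01% to 1.38% up to 8.81% to 9.88%, and that of B cells from 1.38% to 4.00% and 4.41% (adipocytes unthinned, 1.45% to 2.56% and 13.3% to 18.5%). In young SAT the adipocyte share of Timp3 was at or under that of B cells, so it is read as background, and the B cell share was also higher in old SAT. For Adamts1 the adipocyte share went from 0.197% to 0.447% up to 3.39% to 4.73% (unthinned, 1.23% to 1.57% and 5.31% to 8.76%), with B cells at 0% to 0.394% and then 0%, so in young SAT it was about at the background. Adamts12 was already in 26.8% to 29.1% of young adipocytes and in 40.0% to 40.5% of old ones (39% to 45.6% and 55.0% to 60.5% unthinned). The 2 members called lower were near the background. Mmp16 was in 0.984% to 1.01% of young adipocytes, within the 0.645% to 1.08% of T cells and above the 0.197% to 0.589% of B cells. In CPM it was at 12.9 and 12.4 in young adipocytes and at 7.05 and 6.47 in all immune nuclei of young SAT. That young level is read as near the background. In old SAT it was in 0.147% to 0.237% of adipocytes and 0% of B cells. Adamts3 went from 2.57% to 4.13% of young adipocytes to 0.885% to 1.09% of old ones, while B cells went from 1.38% to 2.36% to 0% and T cells from 2.06% to 2.17% to 0.388% to 2.48%. Unthinned, the adipocyte shares were 1.97% to 2.12% and 0.295% to 0.426% for Mmp16 and 4.02% to 7.28% and 2.06% to 2.32% for Adamts3. Median depth was 1846, 1572, 1782.5 and 1989 UMIs in the SAT adipocytes and 1328, 1183, 1320 and 1552.5 in the SAT B cells, and in the SAT T cells 1457, 1248.5, 1462.5 and 1355.

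**Figure D3:**
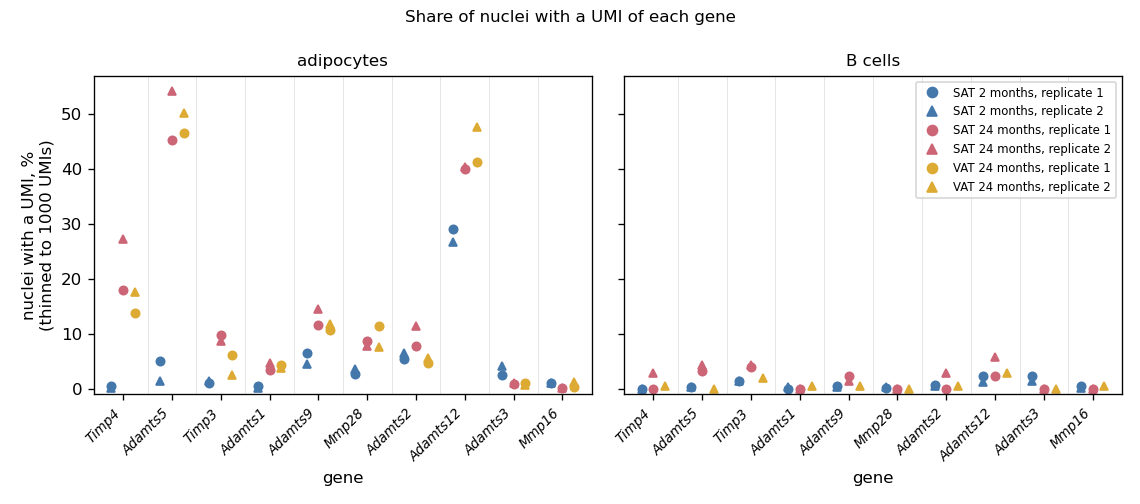
Percent of nuclei with at least 1 UMI of a member after thinning to 1000 UMIs, in adipocytes and in B cells, 1 point per library. Adamts5 goes from 1.38% and 5.03% of young to 45.4% and 54.3% of old SAT adipocytes, while B cells stay at or under 4.41%.

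The age effect was higher in adipocytes than in FAPs for 3 of the genes. Testing the difference of the 2 age effects, adipocytes minus FAPs, in 1 model with the library as a block, Adamts5, Adamts1 and Adamts2 were called among 27 members tested, all 3 with a positive difference (0.795% of 11949 genes called, 0.460% higher and 0.335% lower). For Adamts5 the difference was 4.79 ± 0.82 on the log2 scale (adjusted p = 0.00869), with FAPs at 530 and 516 CPM in young and 264 and 1162 CPM in old SAT. For Adamts1 it was 3.12 ± 0.62 (adjusted p = 0.0173), with FAPs at a log2 fold change of -0.52. For Adamts2 it was 2.05 ± 0.46 (adjusted p = 0.0384), with FAPs at 681 and 724 CPM in young and 396 and 332 CPM in old SAT; with library-size scaling it was 1.92 and not called (adjusted p = 0.0544). Timp3 did not pass (1.97 ± 0.51, adjusted p = 0.0821), nor did Timp4, which had 0, 1, 0 and 24 UMIs in the FAPs of the SAT libraries (1.10 ± 2.34, adjusted p = 0.921). At an unadjusted p under 0.05 there were 11 members, against 10.2% of all genes.

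Set against all other nuclei in place of FAPs, no age effect was called as different: 0 of 41 members by edgeR, with 10 at an unadjusted p under 0.05 (1.41% of 20148 genes called, 0.472% higher and 0.938% lower, and 15.6% at an unadjusted p under 0.05). In the other nuclei Timp4 was at 2.75 and 3.34 CPM in young and 23.6 and 293 CPM in old SAT, Adamts5 at 33.7 and 30.4 against 44.9 and 299 CPM, and Timp3 at 73.0 and 77.7 against 196 and 672 CPM. In each case the second old SAT library was the highest, the library whose endothelial nuclei held the most adipocyte markers. For Adamts5 the difference between adipocytes and the other nuclei was 3.24 ± 1.25 (adjusted p = 0.236), for Timp4 the adjusted p was 0.650, and the smallest adjusted p was 0.0560, for Adamts3 (-2.09 ± 0.48).

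**Figure D4:**
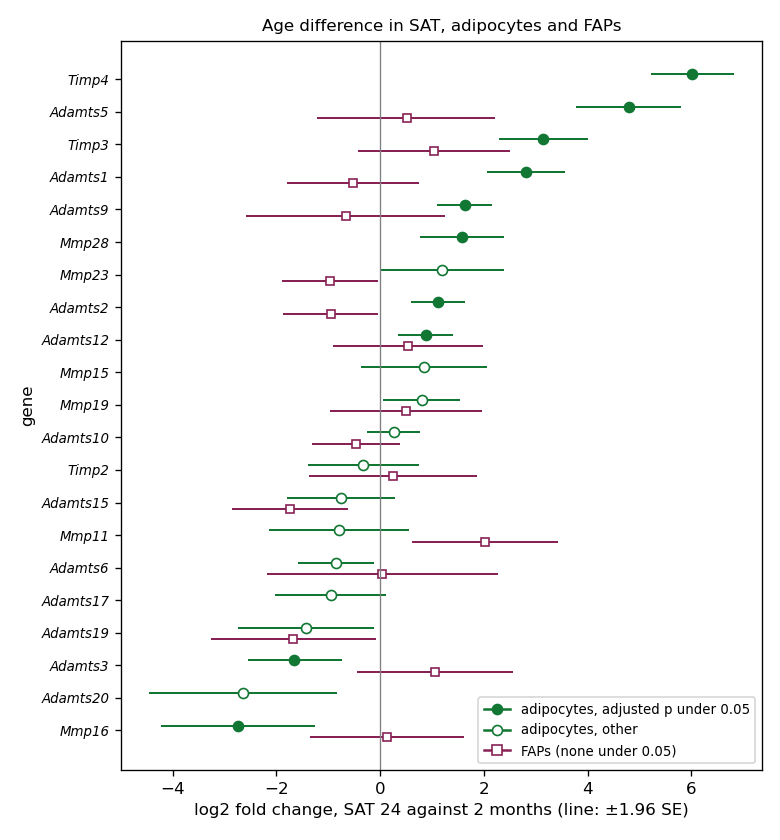
Log2 fold change of SAT at 24 against 2 months for the 21 members tested in adipocytes, shown in adipocytes and, where tested, in FAPs. Lines are a fixed multiple of the SE, and they are narrower than a 95% interval of the edgeR quasi-likelihood test. For Mmp23 in adipocytes the line runs from 0.01 to 2.37, while that test gave an unadjusted p of 0.0717. Adamts5 and Adamts1 lie at 4.79 and 2.81 in adipocytes and at 0.51 and -0.52 in FAPs.

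In FAPs themselves, 22 members were tested with age and none was called (0 by edgeR and 0 by DESeq2, with 2 at an unadjusted p under 0.05, smallest adjusted p = 0.322), as none of the 8068 genes was (0%, with 10.6% at an unadjusted p under 0.05). These are 180, 178, 52, 202, 584 and 311 nuclei, and the first old SAT library rests on 52. The 2 members under the unadjusted threshold were Adamts15, a proteoglycan-cleaving protease, at 175 and 335 CPM in young and 79.1 and 74.4 CPM in old SAT (log2 -1.74 ± 0.56), and Mmp11 (stromelysin-3), at 29.1 and 11.1 against 52.7 and 96.1 CPM (log2 2.02 ± 0.71). Other stromal proteases and inhibitors were not called, and the replicates of a group often lay far apart. Mmp2 was at 501, 496, 356, 573, 216 and 46.9 CPM. Mmp14 was at 265, 219, 264, 580, 218 and 122 CPM. The stromelysin Mmp3 was at 448, 446, 251, 793, 126 and 0 CPM. All 3 were lower in VAT than in old SAT, with the second VAT library lowest. Timp2 was at 603, 1123, 580, 1429, 1684 and 308 CPM, Timp3 at 478, 1029, 1819, 1302, 480 and 106 CPM, and Adamts12 at 1774, 757, 1740, 1887, 982 and 245 CPM, with the second VAT library the lowest for each.

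Of the FAPs, 2 kinds were named from the marker lists, a Dpp4 progenitor-like cluster (408 nuclei) and a Col15a1 preadipocyte-like cluster (300 nuclei), and 5 members, chosen after their values were seen, are given for them as a description over the libraries with at least 20 nuclei of both, SAT 2 months replicates 1 and 2, SAT 24 months replicate 2 and VAT replicates 1 and 2. Timp2 was higher in the Dpp4 progenitor-like nuclei in all 5, at 814, 1551, 3656, 2711 and 402 CPM against 587, 556, 1318, 825 and 211 CPM. Mmp14 was higher in the Col15a1 preadipocyte-like nuclei in all 5, at 335, 503, 824, 264 and 256 CPM against 203, 162, 404, 218 and 122 CPM. Mmp3 followed Mmp14 in 4 of them, at 647, 1033, 1107 and 142 CPM against 247, 264, 42.5 and 19.3 CPM, and had no UMI in either cluster of the second VAT library. Adamts16, an ADAMTS of unsettled substrate, was at 29.1, 50.7, 191, 386 and 12.2 CPM in the progenitor-like nuclei and at 0, 26.5, 0, 0 and 30.1 CPM in the others, higher in the progenitor-like nuclei in 4 and lower in the second VAT library. Mmp2 had no fixed order, at 581, 689, 276, 281 and 24.4 CPM in the progenitor-like nuclei against 515, 503, 897, 142 and 105 CPM. The largest stromal cluster, 458 nuclei that fit neither name, was led by Frmd5, Adam12 and Adamts12.

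**Figure D5:**
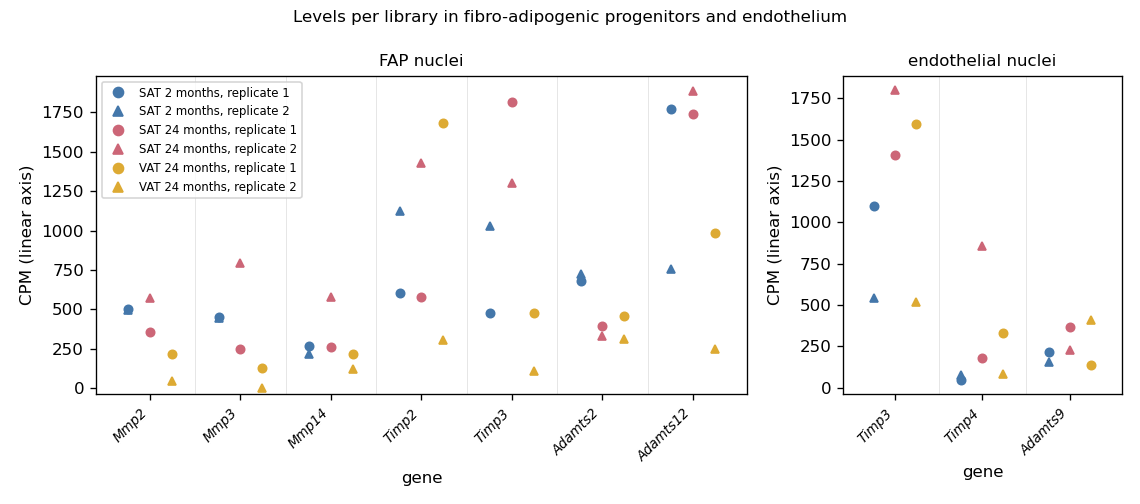
Levels (CPM) of 7 members in FAPs and 3 in endothelial nuclei, 1 point per library in the 3 groups. In FAPs the second VAT library is the lowest for Mmp2, Mmp3, Mmp14, Timp2, Timp3 and Adamts12, and within groups the points of Timp2 span from 580 to 1429 CPM in old SAT.

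Endothelial nuclei carried the inhibitors Timp3 and Timp4 and the protease Adamts9. Timp3 was at 1098 and 540 CPM in young SAT, 1405 and 1798 CPM in old SAT and 1593 and 521 CPM in VAT. Timp4 was at 48.6 and 79.1 CPM, 178 and 860 CPM, and 333 and 80.2 CPM. Adamts9 was at 214 and 158, 370 and 225, and 137 and 413 CPM. Old SAT lay above young SAT in each case, by little for Adamts9. The class differed in make-up, with blood vascular nuclei 31 of 57 and 25 of 47 in young SAT, 91 of 102 and 587 of 610 in old SAT and 168 of 192 and 109 of 219 in VAT. Within the blood vascular nuclei Adamts9 was at 243 and 100.4 CPM in young and 376 and 226 CPM in old SAT, values that overlapped, Timp4 at 52.0 and 151 against 195 and 867 CPM, and Timp3 at 1126 and 502 against 1499 and 1774 CPM. None of the 13 members tested was called with age by edgeR (5 at an unadjusted p under 0.05, smallest adjusted p = 0.261, Timp4 at log2 3.41 ± 0.99; 0.0256% of 7816 genes called, all of them lower, and 12.2% at an unadjusted p under 0.05), and DESeq2 called 1. The adipocyte markers in these nuclei, 2226, 2359, 2300, 7402, 5346 and 682 CPM, have the same highest libraries as Timp4; their part in it was not tested.

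Epithelial nuclei, found mainly in SAT and rich in mammary markers there (8001 to 9724 CPM), gave 4 calls with age, all higher, of 24 members tested (16.7%, against 7.80% of all 13008 genes, 3.87% higher and 3.92% lower). Of the 4, Adamts5 is read as background below and Timp1 had 0 UMIs in young SAT, which leaves Timp3 and Timp2. The 16.7% is therefore not read as an excess over all genes. The first VAT library had 4 epithelial nuclei and was left out of this fit. Timp3 rose 2.16-fold, from 74.2 and 63.8 CPM to 153 and 152 CPM (log2 fold change 1.11 ± 0.21, adjusted p = 0.00275). The share of B cells with a Timp3 UMI was also higher in old SAT, as given above. The part of that background in the epithelial rise was not tested, and no B cell share is given for Timp2. Timp2 rose from 61.3 and 59.7 CPM to 104 and 149 CPM (log2 1.05 ± 0.23, adjusted p = 0.00871). Adamts5 was called at 2.34 and 2.06 CPM in young and 10.3 and 35.9 CPM in old SAT, on 4, 2, 10 and 55 UMIs (log2 3.34 ± 0.71, adjusted p = 0.00661), and without the second old library it was not called (log2 2.14, adjusted p = 0.206). After thinning to 1000 UMIs, 0% to 0.461% of young and 1.28% to 3.31% of old SAT epithelial nuclei held an Adamts5 UMI (0.865% to 0.922% and 2.14% to 7.12% unthinned, median depth 3059, 2362, 2846 and 2583 UMIs). B cells, which should lack the gene, were at 0.393% to 0.394% and at 3.20% to 4.41%, so the Adamts5 level of old epithelial nuclei is read as background and not as expression. Timp2 lost its call without the second old library and Timp1 without the first young one. Timp1 gave a value in only 3 of the fits with 1 library left out. Timp1, the inducible inhibitor, had 0 UMIs in both young libraries and 7 and 19 in the old, or 7.19 and 12.4 CPM (adjusted p = 0.0117), at least 2.33-fold higher when a floor of 3 UMIs per library stands for 0. With 0 UMIs in young SAT it passed the filter on low counts only through its old level, so its call is not read as support. DESeq2 called none of the 4 (adjusted p = 0.0543 for Timp3, 0.219 for Timp2 and 0.0716 for Adamts5, none given for Timp1). Without the first old library 8 members were called, and without the second 2. There were 8 members at an unadjusted p under 0.05, against 20.1% of all genes. In these nuclei the immune markers fell from 514 and 728 CPM to 193 and 165 CPM (6 of 9 lower), and the adipocyte markers were at 609 and 507 against 360 and 775 CPM; their part in the result was not tested.

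The comparison of VAT with SAT at 24 months asks which members differ between the depots, and edgeR called no member in any class tested (epithelial nuclei were not tested, and DESeq2 made the calls given below). In adipocytes, 21 were tested by edgeR and 0 called, 0 also by DESeq2, with 5 at an unadjusted p under 0.05 (0.131% of 12933 genes called, 0.0541% higher and 0.0773% lower, and 6.98% at an unadjusted p under 0.05). The smallest p was that of Adamts2, at 103 and 139 CPM in SAT and 50.5 and 62.5 CPM in VAT (log2 -1.12 ± 0.26, adjusted p = 0.202), with VAT below SAT in both libraries. In FAPs, 22 were tested and 0 called by either tool, with 6 at an unadjusted p under 0.05 (0% of all genes called, 6.05% at an unadjusted p under 0.05). These 6 were Mmp27, Timp3, Mmp14, Mmp19, Mmp2 and Mmp3, all lower in VAT, with log2 fold changes from -3.03 ± 0.88 (Mmp27) to -1.31 ± 0.51 (Mmp14) and a smallest adjusted p of 0.731. Without the first VAT library 8 members were called in FAPs, which leaves only the VAT library that holds few FAP markers. In endothelial nuclei, 13 were tested and 0 called by either tool, with 0 at an unadjusted p under 0.05 (0% of all genes called, 4.75% at an unadjusted p under 0.05).

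Immune nuclei held the gelatinase Mmp9, the macrophage elastase Mmp12 and the membrane-type Mmp25. In macrophages Mmp12 was at 65.1 and 5.89 CPM in young SAT, 7.80 and 129 CPM in old SAT and 242 and 505 CPM in VAT. Both VAT libraries were above all SAT libraries. Mmp12 was the 1 member of 14 at an unadjusted p under 0.05 between depots in macrophages (log2 2.20 ± 0.90, adjusted p = 0.955; 0 called by edgeR and 0 by DESeq2, against 0.0224% of 8914 genes called and 4.40% at an unadjusted p under 0.05). Mmp9 there was at 56.6, 21.6, 62.4, 251, 139 and 39.9 CPM, and both old SAT libraries lay above both young ones (log2 2.27 ± 0.78 with age, adjusted p = 0.316). With age, 0 of the 14 members were called in macrophages by edgeR and 1 by DESeq2, with 5 at an unadjusted p under 0.05 (0% of all genes called, 11.9% at an unadjusted p under 0.05), Timp4 first among them at 0, 0, 15.6 and 160 CPM in SAT, in nuclei whose adipocyte markers were at 969, 707, 1162 and 3322 CPM.

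Over all immune nuclei, 31 members were tested and 0 called with age by edgeR (6 at an unadjusted p under 0.05, 1 by DESeq2; 0% of 14301 genes called, 8.55% at an unadjusted p under 0.05) and 0 between depots (2 at an unadjusted p under 0.05, 1 by DESeq2; 0% of genes called, 8.92% at an unadjusted p under 0.05). Mmp25 was at 41.5 and 45.1 CPM in young SAT, 144 and 94.4 CPM in old SAT and 5.29 and 36.4 CPM in VAT. The groups did not overlap in either comparison, neither of them called (log2 1.59 ± 0.58 with age, adjusted p = 0.555, and -2.48 ± 0.63 between depots, adjusted p = 0.357). The make-up of the class differed between the libraries: mature dendritic cell-like nuclei were 191 of 2718, 479 of 4334, 196 of 1025, 188 of 803, 1 of 324 and 35 of 1191, and in the first VAT library 260 of the 324 were macrophages and 12 T cell-like. The part of this in the Mmp25 levels was not tested. Within the class, mature dendritic cell-like nuclei held Mmp25 at 161, 173, 166 and 230 CPM in the SAT libraries and T cell-like nuclei at 39.3, 22.2, 203 and 134 CPM. The dendritic level was steady and the T cell level higher in both old libraries. Adamts14, a procollagen N-propeptidase, was at up to 228 CPM in NK cell-like nuclei and above its level in FAPs in each of the 4 libraries with at least 20 such nuclei.

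The clusters named mesothelial can be compared only in name, since their SAT nuclei lack the markers. There, 13 members were tested between depots and 0 called by edgeR, 3 by DESeq2, with 7 at an unadjusted p under 0.05 (6.06% of 4669 genes called, 2.63% higher and 3.43% lower, and 19.7% at an unadjusted p under 0.05). Adamts3 came closest, at 104 and 260 CPM in SAT and 35.7 and 8.94 CPM in VAT (log2 -3.00 ± 0.79, adjusted p = 0.0788). With age, 0 of 13 were called by edgeR and by DESeq2, with 1 at an unadjusted p under 0.05, Adamts2 (0% of all genes called, 5.40% at an unadjusted p under 0.05). Adamts19, a microfibril-associated ADAMTS, was at 0 to 30.9 CPM in the other 5 libraries and at 676 CPM in these nuclei of the second VAT library, the one with ovary and oviduct markers.

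Summed over all nuclei, where fewer cells of a type and less RNA per cell cannot be told apart, 0 of 41 members were called with age by edgeR and 4 by DESeq2, with 7 at an unadjusted p under 0.05 (0% of 21729 genes called, 8.26% at an unadjusted p under 0.05). Timp4 was at 3.35, 3.34, 78.1 and 329 CPM and Adamts5 at 40.9, 29.3, 311 and 804 CPM in the SAT libraries, adjusted p = 0.601 for both. Adipocyte nuclei numbered 895 and 508 in young and 678 and 2112 in old SAT, or 19.5% and 8.795% of nuclei against 27.2% and 44.85%. Between depots, 0 were called by edgeR and 3 by DESeq2, with 8 at an unadjusted p under 0.05 (0.0138% of genes called, all of them lower, and 7.63% at an unadjusted p under 0.05). Adamts16 had the smallest p of these, at 6.27 and 2.70 CPM in SAT and 17.7 and 46.7 CPM in VAT (log2 2.86 ± 0.64, adjusted p = 0.359).

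Around the members, 42 genes of the same system were followed in 5 lists. In SAT adipocytes with age, 31 of them were tested, 2 rose and 7 fell, where 6.60% of all genes were higher and 7.36% lower. Of the 7 ADAMTS-like proteins, which have the ADAMTS repeats without the protease and sit on microfibrils, 4 fell and 1 rose: Adamtsl3, Adamtsl2, Adamtsl1 and Thsd4 had log2 fold changes of -2.53, -2.38, -2.03 and -1.60 and Adamtsl4 of 1.55. Of 10 ADAM proteases tested, which cut proteins off the cell surface, Adam33 fell from 55.4 and 46.3 CPM to 5.51 and 7.31 CPM (log2 -2.78 ± 0.37, adjusted p = 0.000749) and Adam9 rose (log2 1.18). Of 5 other inhibitors and clearance genes tested, 2 fell. Lrp1, the endocytic receptor that takes up ADAMTS5, MMPs and TIMPs from the matrix, fell from 1148 and 1442 CPM to 391 and 363 CPM (log2 -1.62 ± 0.27, adjusted p = 0.00309), with VAT at 368 and 312 CPM. All 4 old libraries lay well below both young ones. Lrp1, Thsd4, Adamtsl4 and Adam9 are named here with their values already seen. Spock3 had a log2 fold change of -2.51. None of the 4 plasminogen system genes and none of the 5 proteoglycan substrates tested was called, decorin (Dcn) at 62.4 and 59.8 CPM against 32.4 and 62.6 CPM among them. Lrp1 also fell in epithelial nuclei, from 68.3 and 68.9 CPM to 30.8 and 35.9 CPM (log2 -1.05, adjusted p = 0.0157). In FAPs, endothelial nuclei, immune nuclei and macrophages none of the 42 was called in either comparison.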

How the data were processed

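Nuclei of whole fat were sequenced with the Singleron GEXSCOPE kit (1 label names 10x Genomics instead) on the HiSeq X10. The authors aligned the reads to GRCm39 with Celescope, and the deposited files hold raw UMI counts per gene and barcode for 6 libraries. Filters here required more than 500 genes and 1000 UMIs per nucleus and less than 15% of them mitochondrial, which left 27074 nuclei. These were batch corrected with Harmony and clustered with scanpy 1.11.5 (45 Leiden clusters at resolution 2.0); 0 members were among the variable genes used. Clusters were named from marker lists, by a naming rule adjusted after the clusters were seen. Scrublet marked 36 nuclei (0.133%), too few to have worked, so doublets were not removed. At most 0.769% of barcodes were shared between 2 libraries. Counts were summed per library and class (at least 20 nuclei) and tested with edgeR 4.0.16 (quasi-likelihood, TMM, its filter on low counts, all 3 groups in 1 fit), with p-values adjusted by Benjamini-Hochberg over all genes of a class and comparison, and DESeq2 1.42.0 as an alternative. With 2 libraries per group, an exact permutation test cannot go below p = 0.333. In data simulated for adipocytes with age (12933 genes), 75% of 4-fold and 96% of 8-fold changes were called, with 3.4% false among the calls. Counting error is the only error that depth sets here, and it is largest for members of few UMIs. Every member was accounted for: those called were named with their values (up to 10 per class and comparison by log2 fold change), those of at least 100 UMIs by the class of their highest CPM, and those under 10 UMIs by name and count. Of the pathway lists up to 5 called genes per class and comparison were named; other genes and members named were picked after their values were seen. The members and lists were chosen with earlier results of these data known. One promoter sequence and 1 gene are not reported here.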

Additional observations from a re-analysis of the deposited data

Results flagged for a closer look

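The age effect in SAT differed between adipocytes and FAPs for 3 members, by a test of the difference itself in edgeR with Benjamini-Hochberg adjustment over 11949 genes. For Adamts5 the log2 difference was 4.79, for Adamts1 3.12 and for Adamts2 2.05, each with the higher age effect in adipocytes. In FAPs alone the log2 fold changes were 0.51, -0.52 and -0.95, none of them called. Adamts2 was not called with library-size scaling.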

How the results depend on the processing

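Of the 10 members called with age in adipocytes, none changed sign in any of the 15 alternatives, and leaving out 1 library gave 5 to 9 calls. With the replicate number as a block 10 members were called in adipocytes and 5 in epithelial nuclei; between depots the block gave 0 calls in each class tested. Correlations of same-numbered libraries ran from -0.487 to 0.182, and 0 of 7 classes had all over 0.1. Only SAT and VAT of 24 months can share a mouse, and for that pair they ran from -0.487 to 0.085. Pairs of different age cannot tell, and which numbers mark the same mouse is not known. With crossed numbers as the block for the depots, chosen after seeing the data, 6 members were called in the clusters named mesothelial, 1 in immune nuclei and 0 in the other 5 classes. In epithelial nuclei DESeq2 called 0 and leaving out 1 library gave 2 to 8. DESeq2 called 4 with age and 3 between depots over all nuclei, 1 in endothelial nuclei with age, 1 in immune nuclei in each comparison, 1 in macrophages with age and 3 in the clusters named mesothelial between depots. With no filter on low counts, the calls with age were 1 in FAPs, 7 over all nuclei, 2 in endothelial nuclei, 7 in immune nuclei and 4 in macrophages, and between depots 2, 7, 1, 3 and 1 in the same order and 7 in the clusters named mesothelial. Adipocytes against other nuclei gave 3 with no filter and 1 with library-size scaling. FAPs with age gave 1 without batch correction, macrophages with age 2 in a fit of 4 libraries, and the mesothelial clusters 1 without the nuclei of the highest Scrublet scores, an alternative chosen after seeing the data. Between depots, leaving out 1 library gave 0 to 8 in FAPs, 0 to 6 over all nuclei (6 without VAT replicate 1, 2 without VAT replicate 2), 0 to 1 in endothelial and immune nuclei, 0 to 2 in macrophages and 0 to 7 in the mesothelial clusters (7 and 6 without VAT replicates 1 and 2); with age in macrophages it gave 0 to 1. The cause was not tested. For DESeq2 and the other alternatives, here and above, the share of all genes called is not given. Their counts of members therefore cannot be set against a general rate. Nuclei over 2000 UMIs gave no value for FAPs, macrophages, endothelial nuclei with age and the mesothelial clusters with age, nor did the absence of batch correction for the mesothelial clusters. Few nuclei limit FAPs (52 in 1 library), endothelial nuclei (47 in 1) and the clusters named mesothelial in SAT (54 to 89).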

Other observations

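Several members were high in small clusters outside the comparisons. In a smooth muscle or pericyte-like cluster led by Cxcl14 and Myh11, Adamts18 was at 373, 561, 268 and 410 CPM in the SAT libraries and at 0 and 5.97 CPM in VAT, and Adamts1 at 167, 96.7, 472 and 485 CPM in SAT, with the same low VAT values as Adamts18. In an unnamed cluster led by Pcdh15, Adamts10 was at 599, 892, 549, 611, 155 and 403 CPM, and Adamts20 at 202, 264, 102, 42.1, 0 and 20.7 CPM. Clusters found almost only in the second VAT library, the one with ovary and oviduct markers, held Adamts16 at 211 CPM and Mmp10 at 53.4 CPM (led by Ovgp1), Timp1 at 59.0 CPM (led by Cyp11a1) and Adamts19 at 870 CPM on 45 UMIs, a gene that itself leads that cluster of 22 nuclei.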
